A study of Mus musculus with 6 samples.

Results

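The 9 immediate early genes described here are Fos, Fosb, Fosl2, Jun, Junb, Jund, Egr1, Ier2 and Atf3. They were chosen by name as classic members of this class, with earlier results of these data known. All 9 symbols were found once in each library's table, among 17006 genes listed there. The libraries come from primary neural stem cells of the subventricular zone, the germinal layer beside the lateral ventricles of the mouse brain. The aged group holds 3 libraries of cells from C57BL/6 mice of 15 to 18 months, and the young group 3 libraries from C57BL/6 mice of 2 months. No allele or treatment is given for either group. Pieces from 5 mice were combined before they were dissociated. The cells then stayed in proliferation medium until total RNA was extracted and depleted of rRNA, so the values describe cultures and not tissue. The labels do not say which libraries came from separate cultures, so a p-value here measures the spread between these libraries, which may be technical.

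Immediate early genes are switched on by proteins already present in the cell, without new protein synthesis, when growth factors, calcium or stress reach it. The ERK kinases act through serum response factor and its ELK partners, and cyclic AMP and calcium act through CREB, to start transcription of Fos, Egr1 and Ier2 within minutes. The FOS proteins pair with JUN proteins through leucine zippers to form AP-1, a transcription factor that binds DNA near genes of growth, migration and stress. These genes are also known to be induced when brain tissue is dissociated into single cells.

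All 6 libraries were similar in depth. The steps between low values put them at about 5280000 to 5480000 counted reads, and 15116 to 15238 genes were above 0 in a library. FPKM counts the fragments of a gene per kilobase of its transcript and adjusts for library size. All 9 markers of neural stem and progenitor cells were well expressed, with summed levels of 5586 to 5759 FPKM in aged and 5649 to 5818 FPKM in young libraries, and 0 of the 9 passed limma. Over all 11912 genes tested, 0.722% passed at an adjusted p under 0.05. Groups did not overlap in 6 of the 9 markers, beside 17.6% of all genes tested. Among those 6 markers, Sox2, Olig2 and Slc1a3 were higher and Nes and Vim lower in aged libraries. The smallest p was that of Vim, at a mean of 1532 FPKM in aged and 1659 FPKM in young libraries (limma adjusted p = 0.0608). Fibroblast and pericyte markers (6 of 7 in the tables) summed to 2.68 to 3.72 FPKM in aged libraries, against 0.45 to 0.64 FPKM in young ones. Of these, Col1a1 rose, at 2.04, 2.53 and 2.81 FPKM in aged and 0.54, 0.31 and 0.42 FPKM in young libraries (limma adjusted p = 0.0107). Col1a2, at 0.54 to 0.75 FPKM in aged and 0 to 0.04 FPKM in young libraries, and Col3a1, at 0.1 to 0.16 FPKM in aged and 0 to 0.06 FPKM in young libraries, did not overlap either and were too low to test. Dcn and Pdgfrb were at 0.1 FPKM or less in all 6.

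Most of the remaining cell type markers were low, with Map2 the main exception. Lack of overlap, named below for some of them, was seen in 17.6% of all genes tested. Of the microglial markers, 4 of 7 were in the tables, with summed levels of 3.06 to 3.5 FPKM in aged and 2.88 to 4.19 FPKM in young libraries, most of it Cd68, and Ptprc reached at most 0.04 FPKM. Endothelial markers (5 of 6 in the tables) summed to 3 to 3.34 FPKM in aged and 2.26 to 3.57 FPKM in young libraries, with Pecam1 at 0.17 FPKM or less. Egfl7 was higher in aged libraries without overlap, at 2.42 to 2.71 FPKM, against 1.25 to 1.72 FPKM in young ones (limma adjusted p = 0.147). Flt1, too low to test, was lower in aged libraries without overlap, at 0.26 to 0.59 FPKM, against 0.72 to 1.21 FPKM in young ones. The 5 ependymal markers summed to 10.59 to 14.18 FPKM in aged and 12.02 to 14 FPKM in young libraries, most of it Foxj1. The 6 neuronal markers summed to 129.9 to 138.9 FPKM in aged and 136.2 to 138.9 FPKM in young libraries, most of it Map2, which was lower in aged libraries without overlap (limma adjusted p = 0.578). Snap25, at 3.68 to 5.22 FPKM in aged and 2.66 to 3.26 FPKM in young libraries (limma adjusted p = 0.181), and Dcx, at 0.46 to 0.8 FPKM in aged and 0.29 to 0.39 FPKM in young libraries and not tested, were higher in aged libraries without overlap. In bulk RNA, fewer cells of a type and less RNA per cell cannot be told apart, and the part of these markers in the values below was not tested.

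The immediate early genes were present at much the same level in cells from aged and from young mice. Of the 9 genes, 8 had a mean of at least 1 FPKM and were tested, and 0 passed limma at an adjusted p under 0.05. Over all 11912 genes tested, 0.722% passed (0.327% higher and 0.395% lower in aged libraries), so 0 of 8 is not set apart from the background. At an unadjusted p under 0.05, 0 of the 8 passed, against 11.9% of all genes tested. Aged libraries had the higher log2 mean for 4 members and the lower for 4. The median log2 change was -0.02 over the 8 members and 0.0027 over all genes tested, and the median absolute log2 change was 0.05 and 0.07. The 95% intervals of limma lay within a 1.2-fold change in either direction for 6 members and within 1.5-fold for all 8, on the scale of FPKM + 1. That scale adds 1 FPKM before the logarithm is taken and understates changes of weakly expressed genes such as Atf3 and Fosl2. The upper bound of Fosl2, 1.19-fold, lay just inside 1.2-fold. Its SE was 0.101 on this scale and 0.125 with 0.1 FPKM added instead.

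**Figure D1:**
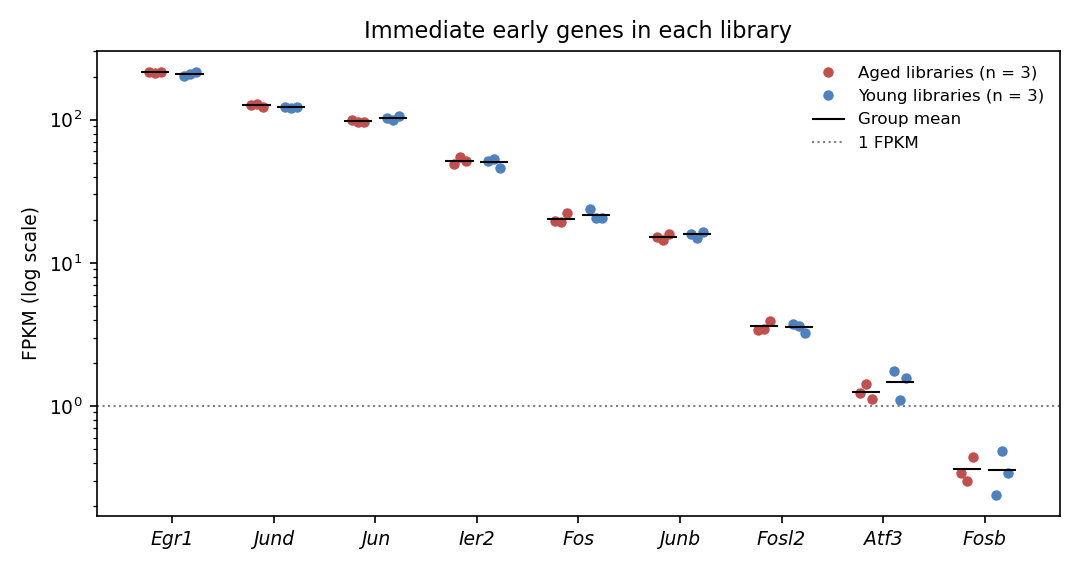
FPKM of each immediate early gene (log axis) in the 3 aged libraries (red, left) and the 3 young libraries (blue, right), with black bars at group means and a dotted line at 1 FPKM. The genes span levels from Egr1, at 201.45 FPKM or more in every library, to Fosb, at 0.48 FPKM or less, and for 8 of the 9 genes the groups overlap; Jun is the exception.

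Egr1 encodes a zinc finger transcription factor induced by ERK signalling, and it had the highest level of the 9 genes. It was at 214.08, 211.47 and 215.75 FPKM in aged libraries and at 201.45, 208.25 and 214.3 FPKM in young libraries. Aged libraries lay close together at the upper end, and the third young library lay among them. The means were 213.8 ± 2.16 FPKM in aged and 208.0 ± 6.43 FPKM in young libraries (SD, n = 3 each). The log2 change was 0.04 ± 0.03 (SE), with an interval of 0.977 to 1.08-fold and a limma adjusted p of 0.704.

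Among the Jun family, Jun was the one member of the 9 genes whose groups did not overlap. c-Jun, its product, is the JUN subunit most tied to growth and to JNK signalling. Jun was at 99.67, 97.08 and 97.03 FPKM in aged libraries and at 102.48, 100.1 and 105.6 FPKM in young libraries. All 3 aged libraries were below all 3 young ones, but the gap between the nearest libraries was smaller than the spread within either group. Means were 97.9 ± 1.51 FPKM in aged and 102.7 ± 2.76 FPKM in young libraries (SD, n = 3 each). The log2 change was -0.07 ± 0.03 (SE), 0.903 to 1.01-fold by its interval, and the limma adjusted p was 0.504 (unadjusted p = 0.0840). Groups did not overlap in 17.6% of all genes tested (8.58% with aged libraries lower), beside 1 of the 8 members tested.

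Jund, whose product is held to be the more constant and growth-restraining JUN protein, was the highest of its family. It stood at 126.24, 127.69 and 123.54 FPKM in aged libraries and at 123.59, 121.37 and 122.77 FPKM in young libraries. The third aged library fell just below the first young one, so the groups overlapped. The means of 125.8 ± 2.11 FPKM in aged and 122.6 ± 1.12 FPKM in young libraries (SD, n = 3 each) gave a log2 change of 0.04 ± 0.03 (SE; limma adjusted p = 0.715; interval 0.977 to 1.08-fold). Junb, which can oppose c-Jun on its targets, was far lower, at 15.23, 14.32 and 15.95 FPKM in aged libraries and 16, 14.98 and 16.32 FPKM in young libraries. Its groups overlapped over most of their range, with a log2 change of -0.05 ± 0.06 (SE; limma adjusted p = 0.819; interval 0.872 to 1.07-fold).

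Among the Fos family, Fos itself was the main transcript and did not pass the test. Its product c-Fos is short-lived and cannot pair with itself, so that it needs a JUN partner to bind DNA. Fos was at 19.45, 19.24 and 22.33 FPKM in aged libraries and at 23.72, 20.49 and 20.63 FPKM in young libraries. In each group 1 library stood above the other two, the third aged and the first young. The means were 20.3 ± 1.73 FPKM in aged and 21.6 ± 1.83 FPKM in young libraries (SD, n = 3 each). The log2 change was -0.08 ± 0.08 (SE; limma adjusted p = 0.759), with an interval of 0.833 to 1.07-fold.

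Fosl2 encodes FRA-2, a FOS relative that lacks the strong activation domain of c-Fos and is known to be induced later. It was at 3.41, 3.47 and 3.92 FPKM in aged libraries and at 3.74, 3.64 and 3.22 FPKM in young libraries. The groups covered nearly the same range (log2 change 0.02 ± 0.10, SE; limma adjusted p = 0.964; interval 0.865 to 1.19-fold). Fosb, whose splice form ΔFosB accumulates in neurons under repeated stimulation, was barely detected and was not tested. It was at 0.34, 0.30 and 0.44 FPKM in aged libraries and at 0.24, 0.48 and 0.34 FPKM in young libraries. At about 4.9 to 9.9 estimated reads per library, a moderate difference between the ages was not detectable.

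Promoter sequence was looked up for the genes to show what the members share apart from their class, and 7 of the 9 matched the RefSeq promoter table of GRCm38.p6 (the assembly of mm10); Egr1 and Ier2 did not. In the 250 bases before the annotated start, on both strands, the letters TGACG, the core of the cyclic AMP response element bound by CREB and ATF proteins, were found for Atf3, Fos, Fosb and Junb. They occur in 17.8% of all 32851 windows of that length. The full palindrome TGACGTCA, which contains TGACG, was found in 0 of the 7 (1.55% of all windows), the AP-1 motif TGACTCA in 0 (4.46%) and the CArG box of serum response factor in 0 (1.47%). The EGR-type motif GCGGGGGCG was found for Fosb and Fosl2 (2.57% of all windows) and TATAAA for Fos alone (12.4%). A match is a description of letters and not of a bound site. Bases farther upstream were not searched, so a motif missing from this window may still lie beyond it. The 100 bases before the start are shown for the 3 genes with TGACG there, because they hold the same letters while their levels run from Fos at a mean of 21.0 FPKM over the 6 libraries to Atf3 at 1.36 FPKM and Fosb at 0.357 FPKM. Capitals mark TGACG, or its complement CGTCA, and each line runs 5′ to 3′ on the gene's strand.
Fos, chr12:85473790-85473889, plus strand: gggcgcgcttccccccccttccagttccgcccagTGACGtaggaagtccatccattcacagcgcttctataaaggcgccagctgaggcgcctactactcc
Fosb, chr7:19310046-19310145, minus strand: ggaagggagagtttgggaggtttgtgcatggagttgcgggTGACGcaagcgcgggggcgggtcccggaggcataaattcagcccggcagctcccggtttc
Atf3, chr1:191183334-191183433, minus strand: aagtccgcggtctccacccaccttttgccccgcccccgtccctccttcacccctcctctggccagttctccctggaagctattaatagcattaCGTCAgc
The match begins at position -66 in Fos and -60 in Fosb on the gene's own strand, and at -7 in Atf3 on the opposite strand. Positions count back from the annotated start of the promoter table. For Fosb that start lies within the RefSeq gene span, which begins at base 19310118 on the minus strand. Part of its window, with the match, is therefore inside the span.

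Ier2 and Atf3 stand outside the FOS and JUN families. Ier2 encodes a short-lived nuclear protein of the early growth response. It was at 49.04, 54.43 and 51.54 FPKM in aged libraries and at 51.35, 53.17 and 46.15 FPKM in young libraries, with wide overlap. Its log2 change was 0.04 ± 0.06 (SE; limma adjusted p = 0.864; interval 0.933 to 1.13-fold). Atf3, a stress-induced bZIP factor that can pair with JUN proteins, was at 1.22, 1.42 and 1.12 FPKM in aged libraries and at 1.75, 1.1 and 1.57 FPKM in young libraries. The young libraries held both the highest and the lowest value. At about 11.9 to 18.6 estimated reads per library, Atf3 had the least exact of the 8 log2 changes, -0.13 ± 0.15 (SE; limma adjusted p = 0.820), with an interval of 0.719 to 1.17-fold.

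**Figure D2:**
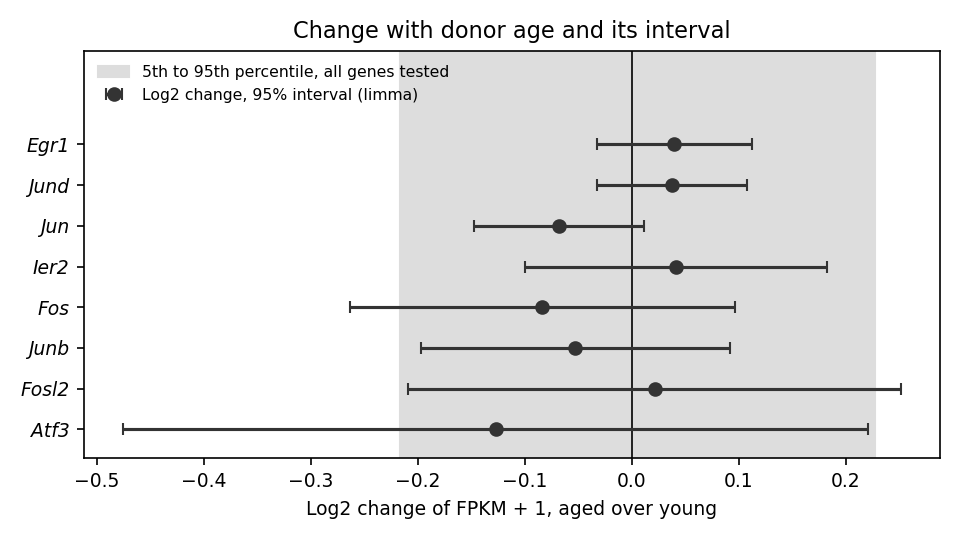
Log2 change of FPKM + 1, aged over young (points), with limma's 95% interval (bars) for the 8 immediate early genes tested; the grey band holds the 5th to 95th percentile of all genes tested, -0.22 to 0.23. Every interval includes 0, all 8 points lie inside the band, and the intervals widen from Egr1 and Jund to Atf3.

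The order of levels was the same at both ages: Egr1, Jund, Jun, Ier2, Fos, Junb, Fosl2, Atf3 and Fosb. FPKM are divided by transcript length, so genes can be set side by side as far as the lengths used are right. The annotation behind the FPKM is not given and the length of Jund differs between annotations. The place of Jund above Jun therefore depends on the length used. In each of the 8 steps down this order, the lowest library of the higher gene was above the highest library of the next gene. The nearest neighbours were Jund and Jun, with a ratio of means of 1.24 over the 6 libraries, and Fos and Junb, with a ratio of 1.36. Junb and Fosl2 were the farthest apart, with a ratio of 4.34. Egr1 held about 3284 to 3520 estimated reads per library, Jun 1635 to 1822 and Jund 1102 to 1125, more than any other member. The estimate for Jund also depends on the length used.

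Within a group the libraries lay close together, and most members varied no more than other genes. The within-group SD of log2(FPKM + 1) was 0.019 for Jund, 0.031 for Jun and 0.033 for Egr1. It was 0.067 for Junb, 0.088 for Fosl2, 0.090 for Ier2, 0.114 for Fos and 0.159 for Atf3. The median over all genes tested was 0.093 and the 95th percentile 0.274, and Fos and Atf3 were the 2 members above the median. Spread falls as the level rises, so the 6 members of at least 10 FPKM were also set beside the 6773 genes of at least 10 FPKM, whose median was 0.070. Of these 6, Fos and Ier2 lay above that median and none of the 6 above the 95th percentile of 0.169.

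**Figure D3:**
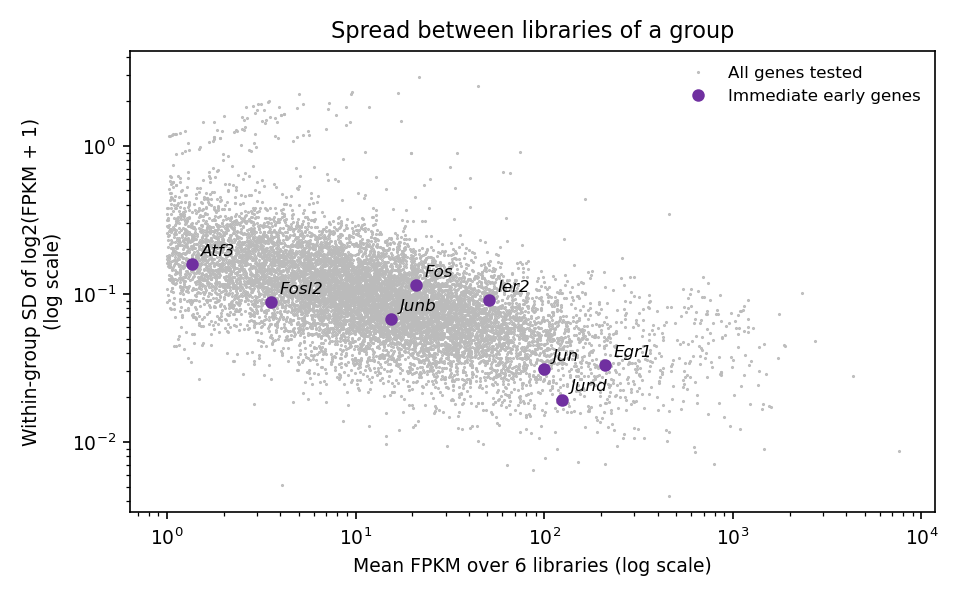
Within-group SD of log2(FPKM + 1) against mean FPKM over the 6 libraries (both log axes) for all 11912 genes tested (grey) and the 8 immediate early genes tested (purple). Jund, Jun and Egr1 lie between 0.019 and 0.033, and the other members between 0.067 and 0.159, inside the cloud of genes of their level.

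Read sampling alone gives a spread, which was set beside the one observed. For Fos, with 237.5 estimated reads on average, counting gives a coefficient of variation of 6.49%, and 8.47% was observed within groups. For Egr1 the values were 1.71% from counting and 2.30% observed, and for Ier2 4.90% and 6.32%. These 3 members varied 1.29 to 1.35 times as much as counting alone, against a median of 1.07 times over 8861 genes with a read estimate. The other members were below 1, from 0.45 for Jund to 0.91 for Jun. The 5th and 95th percentiles over those genes were 0.487 and 2.03, and only Jund, whose length differs between annotations, was outside them. No library was high or low for the class as a whole: 5 of the 6 libraries held the highest value of 1 or 2 members, and the same 5 the lowest value of 1 or 2.

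The make-up of the Jun and Fos families was close at both ages. Summed FPKM of the Jun family was 238.9 ± 2.32 in aged and 241.1 ± 4.21 in young libraries (SD, n = 3 each). That of the Fos family was 24.3 ± 2.07 in aged and 25.5 ± 1.92 in young libraries. The Jun family sum was 8.86 to 10.4 times the Fos family sum in aged and 8.74 to 10.1 times in young libraries. Within the Jun family, Jund held 52.7% ± 0.646 in aged and 50.9% ± 0.604 in young libraries, and Jun 41.0% ± 0.366 in aged and 42.6% ± 0.475 in young libraries (SD, n = 3 each). The ranges of these shares did not overlap between the ages, though they were close. Jund was at 52.2% to 53.4% in aged and 50.2% to 51.3% in young libraries. The shares of Jund and Jun are not independent, because together these genes make up most of the family sum. Of all single genes tested, 17.6% had groups that did not overlap. Within the Fos family, Fos held 83.7% ± 0.116 in aged and 84.7% ± 1.28 in young libraries, and Fosl2 14.8% ± 0.224 in aged and 13.9% ± 0.805 in young libraries. These shares are descriptions of transcript levels, were not tested, and do not give the amounts of AP-1 proteins.

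**Figure D4:**
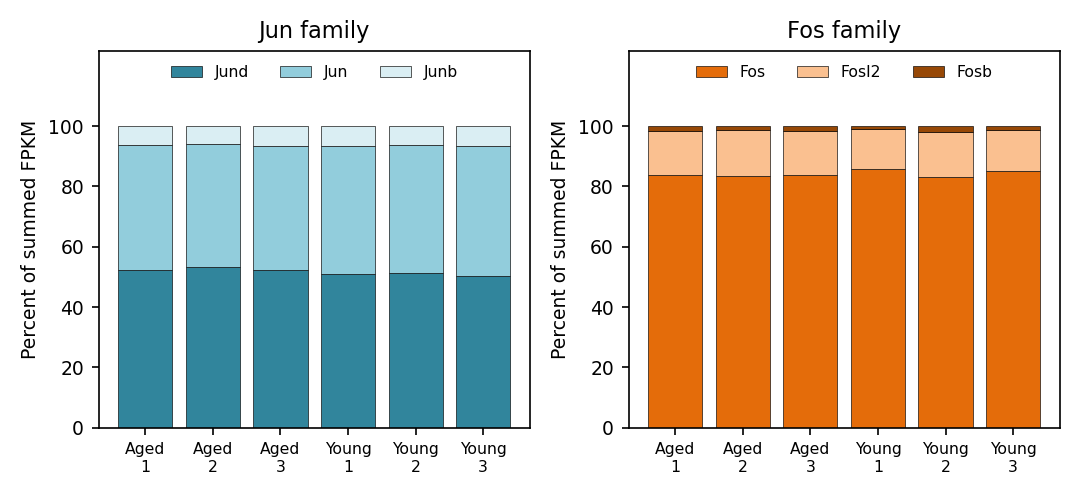
Percent of the summed FPKM of the Jun family (left) and of the Fos family (right) held by each gene, one bar per library, aged libraries left of young. Jund and Jun hold 50.2% to 53.4% and 40.6% to 43.2% of the Jun family in all libraries, and Fos 83.3% to 85.6% of the Fos family.

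Several members share genomic features. Jund, Ier2 and Junb lie on chromosome 8, and 314.1 kilobases separate the end of Ier2 from the start of Junb (RefSeq, GRCm38.p6). Jun, Junb, Jund and Ier2 have coding transcripts of 1 exon in GENCODE M21. On the opposite strand, the gene span of Jun overlaps Junos, that of Jund overlaps Gm11175, that of Junb overlaps Prdx2 and that of Atf3 overlaps Gm24748. The strand setting of the counting is not given in the sources used here, so reads of these pairs cannot be told apart, and the values of Jun, Jund, Junb and Atf3 carry that uncertainty.

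The genes whose profile over the 6 libraries was nearest to 3 of the members were other than immediate early genes. Likeness was the root mean square distance between log2(FPKM + 1) profiles, each centred on its mean, among 9001 genes of at least 5 FPKM. Nearest to Fos were Shoc2, Cdca5 and A2m, at distances of 0.0245 to 0.0302, where the profile of Fos itself departs from flat by 0.102. Shoc2 encodes a scaffold that helps RAS activate RAF, and Cdca5 a cohesin regulator, sororin. Nearest to Jun were Ptp4a2, Sppl2b and Pfn1 (0.0122 to 0.0128, with 0.0425 for Jun), and nearest to Egr1 were Dicer1, Sf3a2 and Rab40c (0.00856 to 0.0126, with 0.0335 for Egr1). Among the members, the nearest to Fos was Junb, at rank 342, the nearest to Jun was again Junb, at rank 747, and the nearest to Egr1 was Jund, at rank 403. With only 6 libraries and 9001 genes, near matches can be found for most profiles.

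The wider pathway was described by 5 lists of 87 genes, of which 85 were in the tables and 79 were tested. Of these 79, 0 passed limma over all genes (3 higher and 7 lower at an unadjusted p under 0.05, which is 12.7% of them beside 11.9% of all genes tested). Groups did not overlap in 21.5% of them, beside 17.6% of all genes tested. The list of other immediate early genes held 34 genes, 30 of them tested. Of those, 0 rose and 0 fell by limma, 9 had the higher and 21 the lower log2 mean in aged libraries, and the median log2 change was -0.09. Of all genes tested, 49.0% had the lower log2 mean in aged libraries. At an unadjusted p under 0.05, 4 of the 30 were lower and 0 higher. Over all genes tested, 11.9% passed that level in either direction, and the list as a whole was not tested.

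Egr4, a zinc finger relative of Egr1, had the smallest p of that list. It was at 13.22, 11.62 and 12 FPKM in aged libraries and at 17.2, 16.83 and 14.96 FPKM in young libraries. The groups did not overlap, but the log2 change of -0.38 ± 0.08 (SE) had a limma adjusted p of 0.0685 and did not pass. The other EGR genes, added to complete the family, lay close at both ages, with Egr2 at a mean of 8.78 FPKM in aged and 8.81 FPKM in young libraries and Egr3 at 10.05 FPKM in aged and 10.3 FPKM in young libraries. Ier5l, related in sequence to Ier2 and Ier5, was at 38.87, 43.48 and 45.64 FPKM in aged libraries and at 52.53, 50.23 and 54.33 FPKM in young libraries. Its groups did not overlap either, and it did not pass (log2 change -0.29 ± 0.06, SE; limma adjusted p = 0.0929).

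Of the AP-1 and bZIP partner genes, 11 were tested, 0 passed, and the median log2 change was 0.07, with 6 higher and 5 lower. Batf3, a small bZIP protein that pairs with JUN, was at 1.63, 1.64 and 2.16 FPKM in aged libraries and at 1.33, 0.53 and 1.06 FPKM in young libraries (limma adjusted p = 0.304). Atf4, the effector of the integrated stress response and an activator of Atf3, was at a mean of 105.6 FPKM in aged and 98.7 FPKM in young libraries, without overlap (limma adjusted p = 0.317). Of the 24 upstream kinases and transcription factors, 0 passed, and their median was 0.01. Crem, a CREB relative, averaged 5.85 FPKM in aged and 7.38 FPKM in young libraries (limma adjusted p = 0.354), and Mapk3, which encodes ERK1, 45.8 FPKM in aged and 43.4 FPKM in young libraries (limma adjusted p = 0.503).

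Of the phosphatases that switch off ERK and JNK kinases, 8 were tested, 0 passed, and the median was -0.04. Dusp6, an ERK-specific phosphatase, averaged 119.8 ± 2.36 FPKM in aged and 129.4 ± 3.495 FPKM in young libraries (SD, n = 3 each), without overlap and with a limma adjusted p of 0.245. Dusp14 averaged 2.52 FPKM in aged and 1.70 FPKM in young libraries, also without overlap (limma adjusted p = 0.286). Of the 6 tested genes for EGR corepressors and for ubiquitin ligases and adaptors that degrade AP-1 proteins, 0 passed and the median was -0.02. The corepressor gene Nab1 averaged 12.1 FPKM in aged and 13.2 FPKM in young libraries (limma adjusted p = 0.537), and Itch, a ligase for JUN proteins, 14.4 FPKM in aged and 13.8 FPKM in young libraries (limma adjusted p = 0.727).

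**Figure D5:**
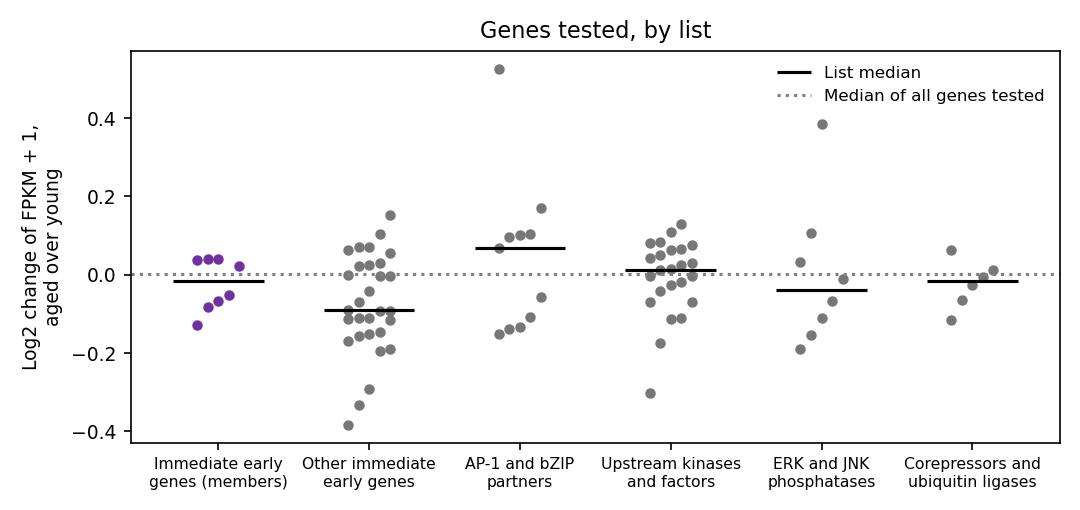
Log2 change of FPKM + 1, aged over young, of each gene tested (points) in the immediate early genes described here (purple) and in 5 lists of related genes (grey); black bars are list medians and the dotted line the median of all genes tested. The members stay between -0.13 and 0.04, and the other lists reach from -0.38 (Egr4) to 0.53 (Batf3).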

How the data were processed

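Bulk RNA sequencing covered 3 aged and 3 young libraries, with groups taken from the labels. The authors deposited 1 FPKM value per gene and library with 2 decimals, per the file headers. The submitters' processing notes name TopHat, Cuffdiff and mm10; annotation, strand setting and normalization between libraries are not given in the sources used here. Because FPKM are not counts, limma 3.58.1 in R 4.3.3 (lmFit, eBayes with a trend, no covariates) was run two-sided on log2(FPKM + 1). It covered the 11912 genes whose mean reached 1 FPKM, and p was adjusted over all of them by Benjamini-Hochberg with a threshold of 0.05. The fit was tested on simulated data with changes far larger than those of the members, so that test does not cover changes of their size. Tables were made with pandas 2.3.3 and numpy 2.4.6 in Python 3.11.15, and figures with matplotlib 3.10.9.

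Depth was read from the steps between low values, with GENCODE M21 lengths of transcripts matched by RefSeq accession. At the chosen depths, 72.2% to 76.1% of low values lay within 0.15 of a whole read, against 30% by chance, and 46.0% to 56.5% of values between 3.5 and 10.5 reads, which did not set the step. Estimated reads are approximate. Counting spreads cover counting error only.

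The members and lists were chosen with earlier results of these data known. All 9 members are named, from each list, markers included, any called gene or else the 2 tested genes with the smallest unadjusted p, and the 3 nearest profiles of Fos, Jun and Egr1. Of the genes this rule took, 1 is not reported. Alternatives covered the pseudocount, the filter, the scaling, limma's options, a replicate block and leaving out each library.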

Additional observations from a re-analysis of the deposited data

How the results depend on the processing

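Under the 17 alternatives, limma called 0 of the members and 0 of the genes of the 5 related lists each time. The lowest adjusted p of a member was 0.438, for Jun after quantile normalization. Log2 changes of Fos, Jun, Junb and Atf3 stayed below 0 and those of Jund and Egr1 above 0 in every alternative that tested them. With any 1 library left out, Fosl2 ran from -0.0296 to 0.0542 (below 0 without aged 3 or young 3) and Ier2 from -0.0171 to 0.083 (below 0 without young 3). Over the same fits the ranges were -0.15 to -0.02 for Fos (nearest 0 without young 1), -0.24 to -0.05 for Atf3 (without young 1), -0.09 to -0.01 for Junb (without aged 2), -0.09 to -0.05 for Jun (without young 3), 0.03 to 0.05 for Jund (without aged 2) and 0.02 to 0.06 for Egr1 (without young 1). Without the filter, Fosb had a log2 change of 0.01 and a limma adjusted p of 0.992. Calls over all genes, 86, moved more: 11 without limma's trend, 22 with a replicate block, and 39 to 63 with 1 library left out; the cause was not tested. Same-numbered libraries did not deviate together (correlations 0.00795, -0.0719 and 0.108 over the genes tested), and not every library correlated best with its own number. With 3 libraries per group, these correlations cannot settle whether the numbers pair the samples. Low read numbers limit what can be said of Fosb and Atf3.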

Other observations

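Some values were picked out after they had been seen and carry no test. The ratio of Jund to Jun, whose transcripts make up most of the Jun family, was 1.27, 1.32 and 1.27 in aged libraries and 1.21, 1.21 and 1.16 in young libraries, so that the groups did not overlap, with Jund slightly higher and Jun slightly lower in aged libraries. Npas4, an immediate early gene driven by calcium in neurons, was at 0.11 FPKM in each aged library and at 0.28, 0.16 and 0.39 FPKM in young libraries, below the level at which genes were tested. Values this low rest on few reads, as those of Fosb did, which limits what can be said of Npas4. Of the immediate early genes that lay under an unadjusted p of 0.05 besides Egr4 and Ier5l, Sgk1, a kinase induced by serum and glucocorticoids, averaged 10.03 FPKM in aged and 11.4 FPKM in young libraries. Btg2, an antiproliferative gene of neural progenitors, averaged 17.9 FPKM in aged and 20.1 FPKM in young libraries. Their limma adjusted p were 0.327 and 0.335.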
